A study of Mus musculus with 2 samples.

Results

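The RNA levels of 10 genes of ion, glutamate and lipid handling were followed across mouse cell populations from the celiac and superior mesenteric ganglia, sympathetic ganglia that serve the gut and other abdominal organs. The genes were chosen by name, with earlier results of these data known. They are the rows Slc4a4, Kcnj10, Fabp7, Apoe, Lipg, Dbi, Glul, Slc1a3, Acsbg1 and Gja1, 10 of the 32183 genes listed in both count tables. All 10 had UMIs (unique molecular identifiers, 1 per captured RNA molecule) in both libraries. The series has 1 group of 2 libraries, made with 10x Genomics 3' v3.1 chemistry from dissociated ganglia, so every comparison is between cell populations of the same suspensions. The series used 20 mice of 7 to 8 weeks, males and females in equal number, with no stated genotype, treatment or contrast between animals. The sources used here do not say how animals were pooled into libraries. The p-values rest on how far differences between populations varied from library to library, which may be technical. That spread was shared across genes, so a p-value does not measure the spread of its own gene.

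Satellite glia wrap the cell bodies of ganglion neurons and share many genes with astrocytes of the brain. In astrocytes, potassium released by active neurons is taken up through Kir4.1 channels (Kcnj10) and spread through connexin 43 gap junctions (Gja1), bicarbonate is moved with sodium by NBCe1 (Slc4a4), and glutamate is cleared by GLAST (Slc1a3) and turned into glutamine by glutamine synthetase (Glul). The other members belong to lipid traffic. Fabp7 and Dbi bind fatty acids and acyl-CoA inside the cell, Acsbg1 activates long fatty acids to acyl-CoA, Apoe carries cholesterol and other lipids out of the cell, and Lipg is a secreted lipase that acts on lipoprotein phospholipids.

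Each library held about as many UMIs as the other, 94521010 in library 1 and 95235439 in library 2, with medians of 6483 and 6498 per barcode. After removal of doublets, 23687 cells were sorted into 23 clusters, named by markers that do not include the 10 genes. Names of cell types stand for cells like those types by their markers. Satellite glia were the largest class, with 3269 cells in library 1 and 3164 in library 2. They formed a Malat1-high cluster of 3199 cells, a Malat1-low cluster of 2701 cells and a cluster of 533 cells led by the interferon-stimulated genes Ifit3, Ifit3b and Ifit1. Levels are given as CPM, the usual scaling of a gene's UMIs to a common total for each population and library. Malat1, a nuclear non-coding RNA, had 112580 and 118930 CPM in the Malat1-high cluster of libraries 1 and 2, and 63038 and 67628 CPM in the Malat1-low cluster. Of the barcodes, 64 occurred in both libraries, 60 of them were kept as cells in both, and 15 of these fell in the same class.

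The line between satellite glia and non-myelinating Schwann cells was thin. On UMIs that were not used for clustering, 7 of the 10 satellite markers were higher in the satellite class, 2 did not pass the test, and 1, Cadm2, was lower. The 7 ran from Bcan (2.93 on the log2 scale) to Slc35f1 (0.08). Of the 10 Schwann markers, 7 were lower in the satellite class, 2 were higher and 1 did not pass. Of all genes tested, 12.6% were higher and 14% lower. The same markers named these cells, so the counts are no independent check of the names. Summed over all 10, the satellite markers stood at 5585 and 5950 CPM in satellite glia and at 5634 and 5751 CPM in non-myelinating Schwann cells, a sum to which Cadm2 gave 1655 and 1744 CPM in the Schwann cells. The summed non-myelinating Schwann markers stood at 10211 and 10707 CPM in the Schwann cells, 7646 and 8307 CPM in Malat1-low satellite glia and 12028 and 12756 CPM in Malat1-high satellite glia, where they were higher than in the Schwann cells themselves. None of the 10 leading genes of the Malat1-high cluster was a satellite marker. A cluster of 1184 cells led by Car10 was also rich in Malat1 and had its highest score for non-myelinating Schwann cells. Cadm2, listed as a satellite marker, was among its leading genes, so the cluster is kept apart without a cell type name. Car10 and Cadm2 were also among the leading genes of the cluster named non-myelinating Schwann cells. Clusters of 848, 496 and 112 cells, led by Syt4, Pcsk1n and Skap1, also stayed unnamed, the first with medians of 1812.5 and 1845 UMIs.

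Fabp7 and Acsbg1 had similar profiles across populations (Pearson's r of log2(CPM + 1) 0.94), at different levels. Promoter sequences are shown for both and for Apoe. They are bases upstream of the annotated start, 5′ to 3′ on the strand of the gene, from RefSeq on GRCm38.p6, where 9 of the 10 members had an entry. Capitals mark a match to 1 of 4 motifs searched on both strands: the SOX core ACAAAG, the POU octamer ATGCAAAT, the RBPJ motif GTGGGAA and the E-box CACGTG. Fabp7 is at chr10:57784673-57784880 (plus strand), Acsbg1 at chr9:54661886-54662135 (minus) and Apoe at chr7:19699189-19699438 (minus).
Fabp7: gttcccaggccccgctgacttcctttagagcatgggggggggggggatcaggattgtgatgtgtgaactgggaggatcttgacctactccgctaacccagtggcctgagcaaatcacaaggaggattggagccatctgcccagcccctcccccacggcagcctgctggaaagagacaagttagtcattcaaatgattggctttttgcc
Acsbg1: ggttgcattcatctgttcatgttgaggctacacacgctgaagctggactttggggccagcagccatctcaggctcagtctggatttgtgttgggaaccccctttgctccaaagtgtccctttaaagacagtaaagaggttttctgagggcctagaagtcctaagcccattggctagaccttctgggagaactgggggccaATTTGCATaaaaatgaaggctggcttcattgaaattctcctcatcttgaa
Apoe: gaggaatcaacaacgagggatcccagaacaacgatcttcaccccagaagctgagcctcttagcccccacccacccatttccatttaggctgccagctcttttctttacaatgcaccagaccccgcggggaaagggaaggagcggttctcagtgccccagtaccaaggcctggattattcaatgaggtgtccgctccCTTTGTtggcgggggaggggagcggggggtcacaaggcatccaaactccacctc
Acsbg1 holds the octamer on the reverse strand, from position -50 relative to the start, and Apoe holds the SOX core on the reverse strand, from position -54. Of 32851 promoters of 250 bases, 1.60% held the octamer, 16.5% the SOX core, 5.42% the RBPJ motif and 6.02% the E-box. Among the members, the octamer was in Acsbg1 only, the SOX core in Apoe only, and the other motifs in no member with an entry. The Fabp7 and Acsbg1 windows share none of the 4 motifs, which says nothing of the factors themselves.

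**Figure D1:**
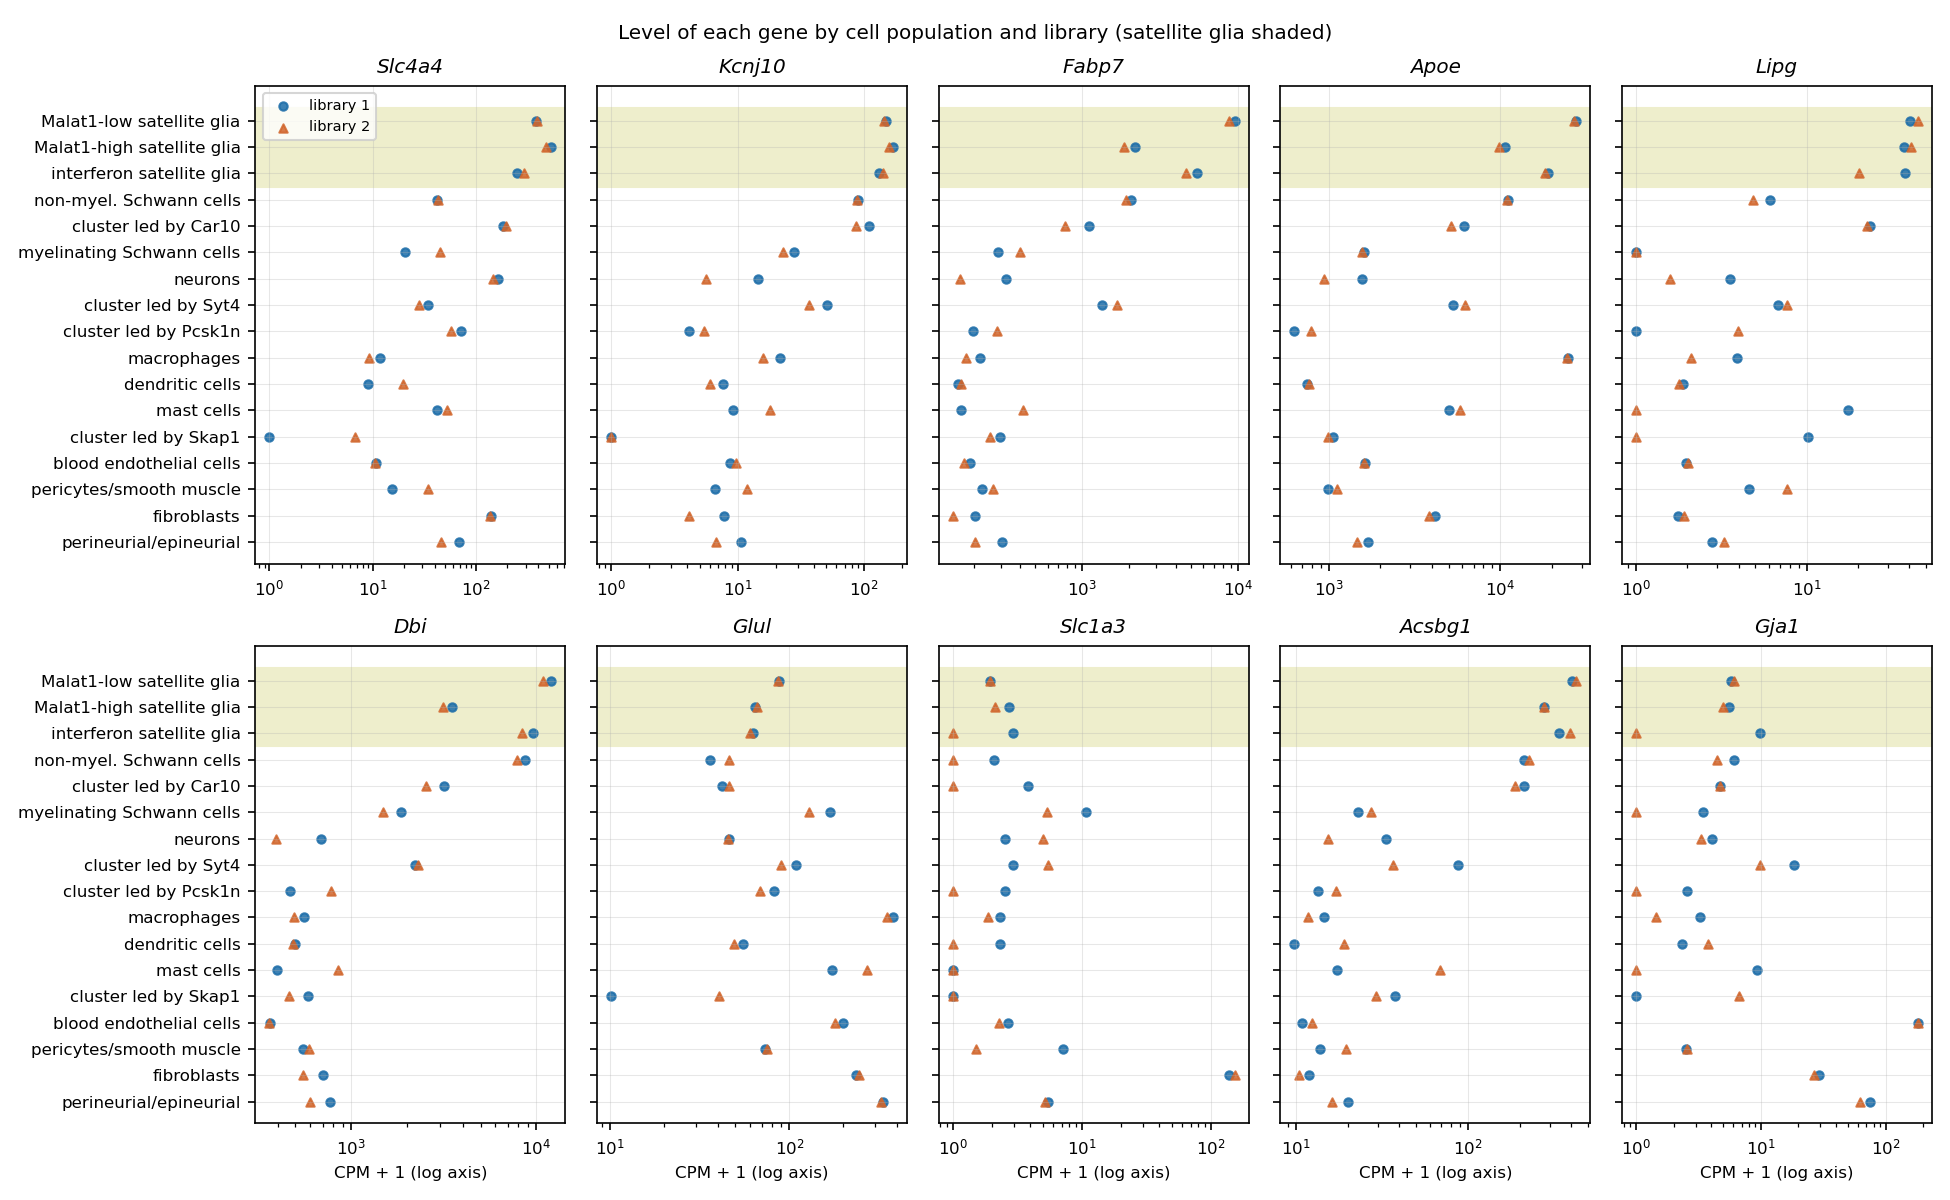
Level of each gene in 17 cell populations, as CPM + 1 on log axes, 1 panel per gene, with circles for library 1 and triangles for library 2 and the satellite glia shaded. Fabp7, Dbi, Acsbg1, Kcnj10, Slc4a4 and Lipg are highest in shaded rows, Apoe is high there and in macrophages, and Glul, Slc1a3 and Gja1 are highest elsewhere.

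Levels of the ion transport genes were highest in satellite glia. Slc4a4, the sodium bicarbonate cotransporter, stood at 530 CPM in library 1 and 477 CPM in library 2 in the Malat1-high cluster, and at 375 and 383 CPM in the Malat1-low cluster. It stood at 247 and 290 CPM in the interferon cluster, 181 and 194 CPM in the Car10 cluster, 160 and 146 CPM in neurons and 139 and 135 CPM in fibroblasts. These 6 populations kept their order in both libraries and no neighbours overlapped. Below them most neighbours overlapped, with non-myelinating Schwann cells at 40.7 and 41.4 CPM and macrophages at 10.7 and 8.15 CPM. Kcnj10, the inward rectifier potassium channel, stood at 168 and 156 CPM in Malat1-high, 148 and 142 CPM in Malat1-low and 131 and 139 CPM in interferon satellite glia. Its level was 87.7 and 86.5 CPM in non-myelinating Schwann cells and 108 and 86.0 CPM in the Car10 cluster, which overlap each other and lie below all satellite glia. In myelinating Schwann cells it stood at 26.8 and 22.0 CPM. Kcnj10 was thus found at similar levels in the 3 satellite clusters and less in the Schwann cells, whereas Slc4a4 was far lower in Schwann cells but present in neurons and fibroblasts.

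Among the lipid genes, Fabp7, the brain-type fatty acid binding protein, stood at 9545 and 8851 CPM in Malat1-low, 5448 and 4625 CPM in interferon and 2169 and 1865 CPM in Malat1-high satellite glia. Non-myelinating Schwann cells held 2052 and 1907 CPM, overlapping the Malat1-high cluster, and myelinating Schwann cells 286 and 396 CPM. Means over the libraries lay between 161 and 290 CPM in the 10 populations outside the glia and the Car10 and Syt4 clusters, which overlapped their neighbours in the order. Dbi, the acyl-CoA binding protein, had a similar order, with 12021 and 10882 CPM in Malat1-low and 9579 and 8318 CPM in interferon satellite glia, and 8647 and 7895 CPM in non-myelinating Schwann cells. The Malat1-high cluster followed with 3481 and 3137 CPM and overlapped the Car10 cluster, at 3161 and 2524 CPM. Non-myelinating Schwann cells therefore held more Dbi by CPM than Malat1-high satellite glia and less than Malat1-low ones.

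Acsbg1, the bubblegum acyl-CoA synthetase, was at 403 and 426 CPM in Malat1-low, 336 and 391 CPM in interferon and 275 and 276 CPM in Malat1-high satellite glia. Non-myelinating Schwann cells held 212 and 225 CPM and the Car10 cluster 212 and 188 CPM, whereas myelinating Schwann cells held 22.0 and 26.4 CPM. Fibroblasts had the lowest mean of the 17 populations, at 10.9 and 9.47 CPM, overlapping blood endothelial cells. Each of the 3 satellite clusters was above all 14 other populations in both libraries.

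Apoe, the apolipoprotein of glia and macrophages, stood at 27826 and 27008 CPM in Malat1-low satellite glia and at 24866 and 24413 CPM in macrophages, which did not overlap. Interferon satellite glia held 19056 and 18348 CPM, non-myelinating Schwann cells 11124 and 11024 CPM, and Malat1-high satellite glia 10680 and 9876 CPM. Fibroblasts held 4154 and 3866 CPM and myelinating Schwann cells 1616 and 1554 CPM. Lipg, endothelial lipase, was low but had its highest levels in satellite glia, at 39.5 and 44.0 CPM in Malat1-low and 36.3 and 40.0 CPM in Malat1-high cells, which overlap. The Car10 cluster held 22.5 and 21.5 CPM, non-myelinating Schwann cells 5.14 and 3.83 CPM and blood endothelial cells 0.956 and 1.02 CPM. Despite the name of the lipase, endothelial cells were near the level of fibroblasts, at 0.766 and 0.916 CPM. Myelinating Schwann cells had 0 Lipg UMIs, and against 3 UMIs over both libraries (3.47 CPM), the limit that a count of 0 allows, satellite glia were at least 11.4-fold higher.

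The remaining 3 members went against the label. Glul, glutamine synthetase, was highest in macrophages, at 376 and 349 CPM, followed by perineurial or epineurial cells (332 and 325 CPM) and fibroblasts (235 and 242 CPM). Malat1-low satellite glia held 86.5 and 85.8 CPM, Malat1-high 63.5 and 64.8 CPM and non-myelinating Schwann cells 35.2 and 45.2 CPM. Satellite glia thus held more Glul than non-myelinating Schwann cells and less than macrophages, fibroblasts and myelinating Schwann cells (168 and 128 CPM). Slc1a3, the GLAST glutamate transporter, was a fibroblast gene here, at 137 and 152 CPM, with 14 and 10 UMIs (1.28 and 0.931 CPM) in all satellite glia. The next highest level of Slc1a3 was 9.76 and 4.40 CPM in myelinating Schwann cells, from 4 and 2 UMIs. Gja1, connexin 43, stood at 180.0 and 180.5 CPM in blood endothelial cells, 73.3 and 61.4 CPM in perineurial or epineurial cells and 28.0 and 25.5 CPM in fibroblasts. Satellite glia held 5.10 and 4.28 CPM of Gja1, from 56 and 46 UMIs, and overlapped non-myelinating Schwann cells at 5.14 and 3.45 CPM.

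**Figure D2:**
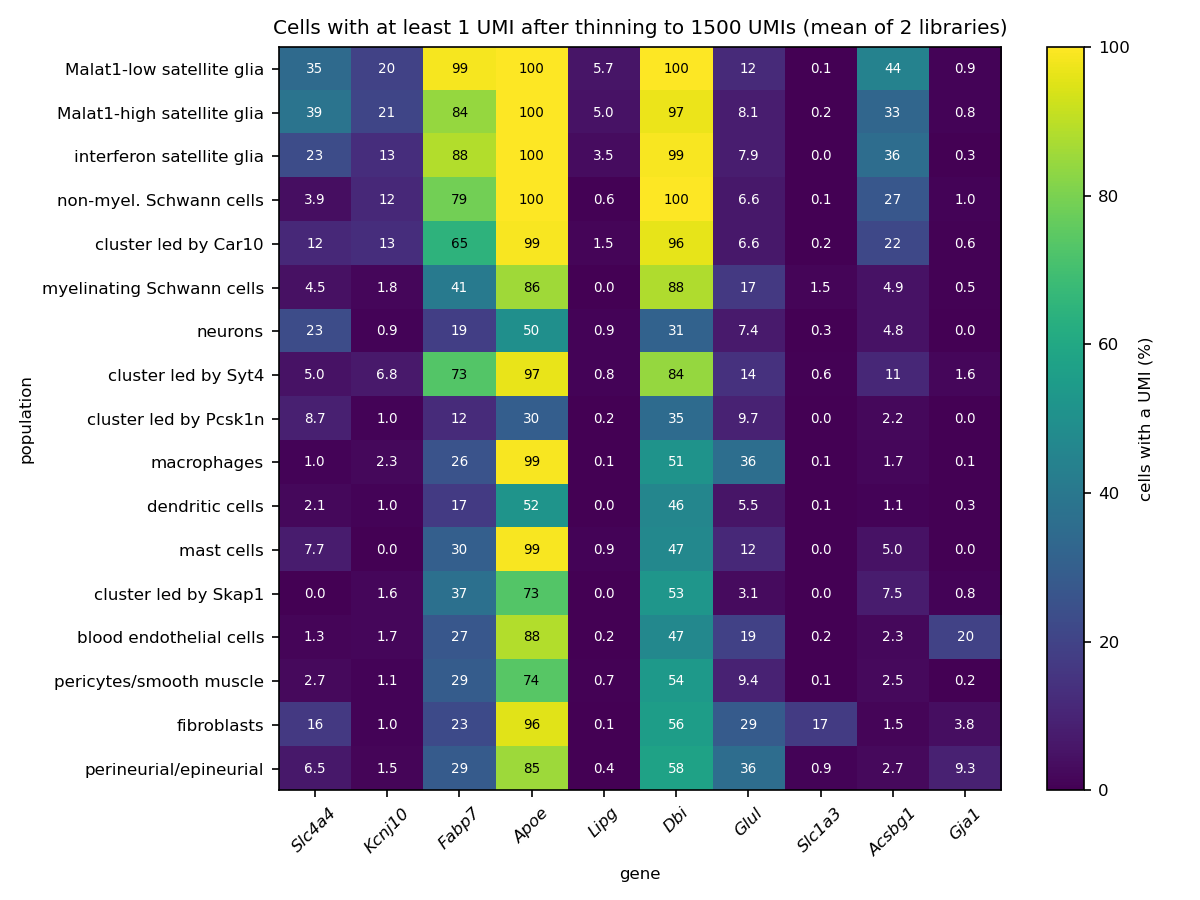
Share of cells with at least 1 UMI of each gene, after each cell was thinned to 1500 UMIs, as the mean of the libraries in percent, with genes in columns and populations in rows. Fabp7, Apoe and Dbi are found in most satellite glia and also in many other cells, whereas Slc1a3 and Gja1 have their highest shares in fibroblasts and blood endothelial cells.

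Shares of cells with a UMI were compared after each cell was thinned to 1500 UMIs, which no cell fell short of. Slc4a4 was found in 36.7% of satellite glia of library 1 (95% exact binomial interval 35.0 to 38.4, counting error only) and 34.5% of library 2, against 3.78% and 4.02% of non-myelinating Schwann cells and 1.19% and 1.44% of blood endothelial cells. Unthinned, the gene was found in 64.1% and 62.9% of satellite glia, whose cells had medians of 5838 and 5785 UMIs, and in 5.84% and 5.20% of endothelial cells, whose medians were 6966.5 and 6986.5. Kcnj10 was found in 19.6% and 19.8% of satellite glia and 10.997% and 12.06% of non-myelinating Schwann cells, against 1.68% and 1.66% of endothelial cells. Acsbg1 was found in 38.1% and 37.9% of satellite glia, 26.1% and 28.4% of non-myelinating Schwann cells and 2.48% and 2.10% of endothelial cells. The thinned shares thus kept the order of the levels for these 3 genes.

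Fabp7 was found in 99.2% and 98.4% of Malat1-low and 86.6% and 82.0% of Malat1-high satellite glia after thinning, and in 80.6% and 76.5% of non-myelinating Schwann cells. It was also found in 28.9% and 25.7% of blood endothelial cells and 27.3% and 24.0% of macrophages. Outside the glia and the Car10 and Syt4 clusters, its mean level ran from 161 CPM in dendritic cells to 290 CPM in mast cells. Single libraries ran from 146 CPM (fibroblasts, library 2) to 415 CPM (mast cells, library 2). Dbi was found in 47.8% and 45.2% of endothelial cells and in at least 96.5% of Malat1-high and Malat1-low satellite glia. The source of the Fabp7 and Dbi UMIs outside the glia was not tested. Lipg was found in 4.59% and 5.82% of satellite glia, 0.344% and 0.879% of non-myelinating Schwann cells and no myelinating Schwann cell. Glul was found in 9.48% and 9.77% of satellite glia, against 35.8% and 36.8% of macrophages. Slc1a3 was found in 0.184% and 0.126% of satellite glia, against 16.4% and 18.5% of fibroblasts, and Gja1 in 0.918% and 0.695%, against 19.1% and 20.4% of endothelial cells. Slc1a3 in satellite glia was near the share in macrophages (0.0901% and 0.181%) and endothelial cells (0.198% and 0.111%) at this depth. The source of these few Slc1a3 UMIs was not tested. At least 5 of the 10 genes were found together in 29.7% and 28.6% of thinned satellite glia, in 6.30% and 6.78% of non-myelinating Schwann cells and in 1.68% and 0.996% of endothelial cells.

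**Figure D3:**
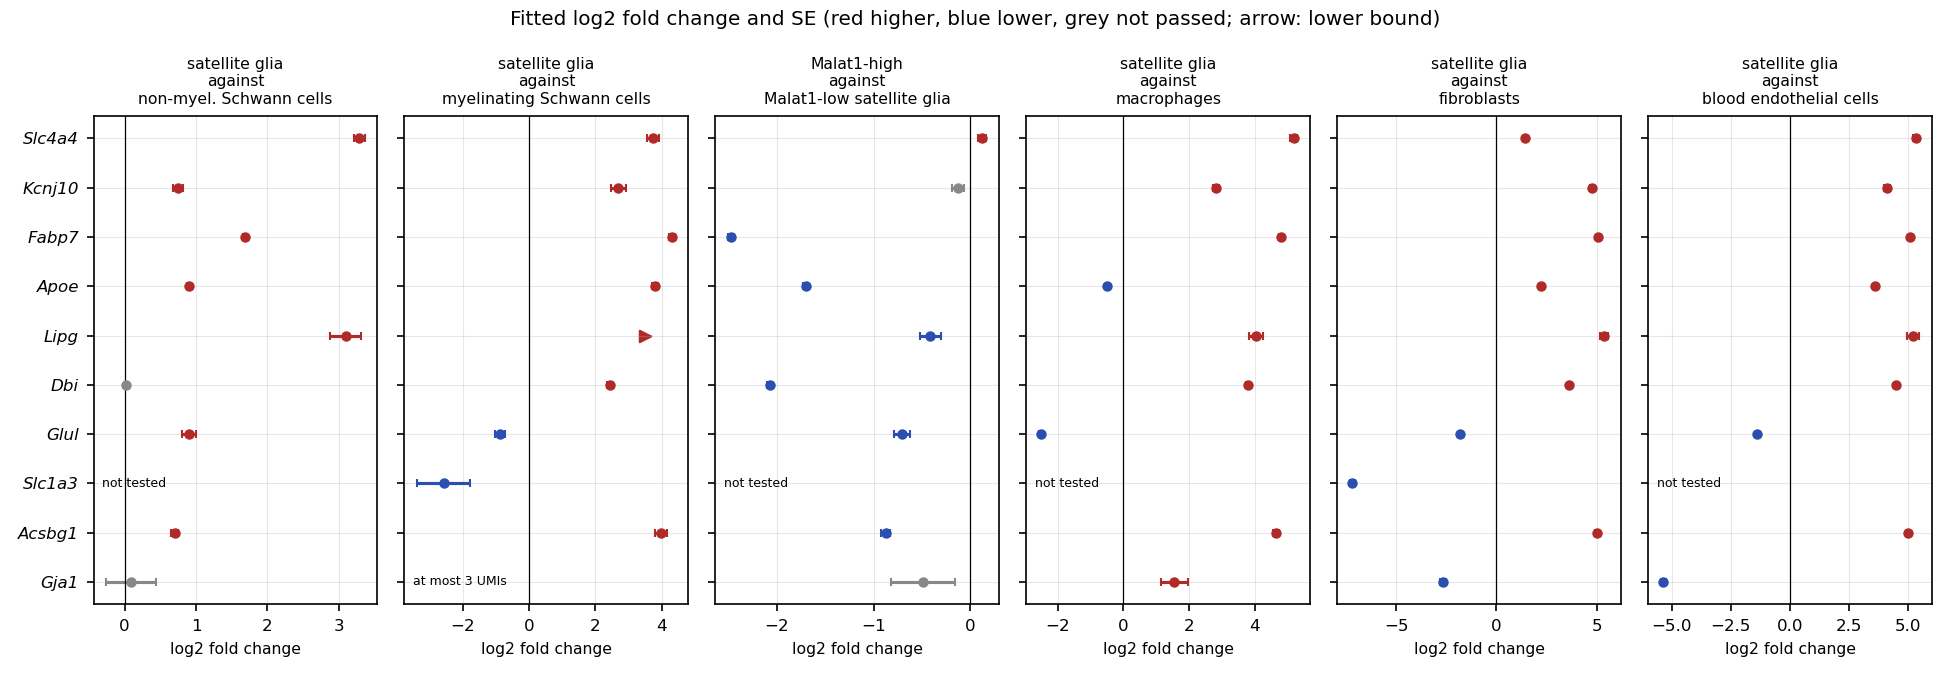
Log2 fold change of each gene in 6 comparisons, with its SE, from the fit across all genes, where red passed the test as higher, blue as lower and grey did not pass. The arrow is the lower bound for Lipg against myelinating Schwann cells, and genes with too few UMIs are named as not tested or with at most 3 UMIs. Slc4a4, Fabp7, Acsbg1 and Kcnj10 lie to the right in the 5 comparisons of satellite glia with another class.

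Satellite glia were then tested against non-myelinating Schwann cells, the neighbouring glia of axons. A gene passed at an adjusted p under 0.05 (edgeR's quasi-likelihood test, Benjamini-Hochberg adjustment over all genes tested). Of 9 members tested, 7 were higher in satellite glia and 0 lower, where 12.6% of 13735 genes were higher and 14% lower, 26.6% in all. The members were chosen with earlier results of these data known, so an excess over these shares is no independent support. The same holds for the counts and medians of members in every comparison. Slc4a4 had the largest difference, 3.28 on the log2 scale (SE 0.0734), with 413 and 407 CPM in satellite glia against 40.7 and 41.4 CPM. Lipg differed by 3.09 (SE 0.214, adjusted p = 2.86e-45), with 38.3 and 40.7 CPM against 5.14 and 3.83 CPM, from 24 UMIs in the Schwann cells. Both genes were several times higher in satellite glia in each library. Mitochondrial UMIs were 5.11% and 4.86% of satellite glia and 3.39% and 3.30% of the Schwann cells. Summed fibroblast markers, 8 of 8 with UMIs, were at 966 and 966 CPM against 1661 and 1561 CPM, and mast cell markers, 6 of 6, at 190.2 and 182 CPM against 84.0 and 89.99 CPM. Their part in the differences was not tested.

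Smaller differences held for the other 5. Fabp7 was higher by 1.68 (SE 0.0247), with 6811 and 6198 CPM against 2052 and 1907 CPM. Glul was higher by 0.90 (SE 0.101, adjusted p = 1.43e-17) and Apoe by 0.90 (SE 0.0197), with 21542 and 20641 CPM of Apoe against 11124 and 11024 CPM. Kcnj10 was higher by 0.75 (SE 0.0734, adjusted p = 1.05e-22) and Acsbg1 by 0.70 (SE 0.0496, adjusted p = 1.04e-43). All 7 were higher in both libraries. Dbi did not pass (0.02, SE 0.0211, adjusted p = 0.533), at 9072 and 8113 CPM against 8647 and 7895 CPM, nor did Gja1 (0.09, SE 0.346, adjusted p = 0.888), and Slc1a3 had too few UMIs to be tested. The median of the 9 was 0.90, against 0.00 over all genes tested. Of these 7 calls, none was lost in an alternative that could be run, while the merged clusters at a lower clustering resolution left no non-myelinating Schwann class to test.

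The Dbi result depended on which cells were compared. With the Malat1-low satellite glia alone, Dbi was higher by 0.51 (SE 0.0270, adjusted p = 3.37e-75), and with the Car10 cluster joined to the Schwann cells, by 0.37 (SE 0.0157, adjusted p = 2.72e-14). With every cell thinned to 1500 UMIs, where each cell counts alike, it was lower by 0.28 (log2 -0.28, adjusted p = 2.79e-14). The levels of the satellite clusters lay on both sides of the Schwann level. The other calls kept their direction with Malat1-low satellite glia alone: Slc4a4 3.24, Lipg 3.24, Fabp7 2.25, Apoe 1.35, Glul 1.14, Acsbg1 0.96 and Kcnj10 0.77. With the Car10 cluster joined, Slc4a4 stood at 2.32 and Lipg at 2.06, below the values without it.

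The Malat1-high satellite cluster and the Car10 cluster, both rich in Malat1, were also set side by side, without a test. The CPM ratio was 2.94 and 2.46 for Slc4a4 in libraries 1 and 2, 1.97 and 2.42 for Fabp7, 1.73 and 1.92 for Apoe, 1.56 and 1.81 for Kcnj10 and 1.62 and 1.86 for Lipg. Dbi (1.10 and 1.24) and Acsbg1 (1.295 and 1.466) were closer to even. In the Car10 cluster itself, Slc4a4 was 4.43 and 4.68 times and Lipg 4.37 and 5.62 times the level of non-myelinating Schwann cells, whereas Dbi was at 0.366 and 0.320 times and Fabp7 at 0.537 and 0.404 times that level. Slc4a4 and Lipg thus had higher levels in this cluster than in the Schwann cells and Fabp7, Dbi and Apoe lower ones, ratios that were not tested.

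Against myelinating Schwann cells, which form the myelin sheaths, 7 members were higher in satellite glia and 2 lower of 10 tested, where 13.3% of 13845 genes were higher and 11.7% lower, 25% in all. Fabp7 was higher by 4.31 (SE 0.103, adjusted p = 2.98e-39), Acsbg1 by 3.98 (SE 0.194, adjusted p = 9.12e-25) and Apoe by 3.81 (SE 0.0870, adjusted p = 5.09e-40). For Fabp7 the libraries gave 4.58 and 3.97. Slc4a4 was higher by 3.73 (SE 0.184), with library ratios of 4.40 and 3.21 on the log2 scale, from 8 and 20 UMIs in the myelinating cells. Kcnj10 was higher by 2.69 (SE 0.226) and Dbi by 2.44 (SE 0.0776). Lipg, with 0 UMIs in the myelinating cells, passed the test (adjusted p = 1.70e-09) but not with DESeq2 (adjusted p = 0.385). Glul was lower in satellite glia, by -0.87 (SE 0.155, adjusted p = 8.19e-06), at 76.8 and 76.7 CPM against 168 and 128 CPM. Slc1a3 was lower by -2.57 (SE 0.791, adjusted p = 0.0106), from 6 UMIs in the myelinating cells, a call lost with DESeq2 (adjusted p = 0.220) and without the filter on low counts (adjusted p = 0.163). Gja1 did not pass (adjusted p = 0.223), with 1 UMI in the myelinating cells. The summed macrophage markers stood at 47.2 and 35.9 CPM in satellite glia and 107 and 66.0 CPM in the myelinating cells, and the fibroblast markers at 966 and 966 CPM against 2550 and 2307 CPM. Their part in the Glul and Slc1a3 results was not tested.

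Macrophages, fibroblasts and blood endothelial cells were the largest classes outside the glia. Against macrophages, 7 of 9 members tested were higher in satellite glia and 2 lower, where 36.1% of 14883 genes were higher and 35.8% lower, 71.8% in all. Slc4a4 was higher by 5.19 (SE 0.104), Fabp7 by 4.79 (SE 0.0546), Acsbg1 by 4.65 (SE 0.0997), Lipg by 4.04 (SE 0.219), Dbi by 3.79 (SE 0.0490) and Kcnj10 by 2.82 (SE 0.104). Single libraries gave 3.73 and 5.21 for Lipg. Gja1 was higher by 1.56 (libraries 1.20 and 3.28, SE 0.410, adjusted p = 2.68e-04), from 12 UMIs in macrophages, a call lost with DESeq2 (adjusted p = 0.142) and with doublets kept (0.28, adjusted p = 0.384). Glul was lower by -2.50 (SE 0.0618). Apoe was lower by -0.48 (SE 0.0379, adjusted p = 4.73e-36), and with Malat1-low satellite glia alone did not pass (-0.05, adjusted p = 0.240). The summed macrophage markers were at 13199 and 13138 CPM in macrophages and at 47.2 and 35.9 CPM in satellite glia. The part of macrophage RNA in the Apoe level of satellite glia was not tested.

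Against fibroblasts all 10 members passed, 7 higher and 3 lower, where 34.2% of 15313 genes were higher and 35.3% lower, 69.5% in all. Lipg was higher by 5.37 (SE 0.197), Fabp7 by 5.07, Acsbg1 by 5.002, Kcnj10 by 4.77, Dbi by 3.63, Apoe by 2.24 and Slc4a4 by 1.42 (SE 0.0452). Single libraries gave 4.49 and 5.54 for Kcnj10. Slc1a3 was lower by -7.17 (SE 0.121), Gja1 by -2.67 (SE 0.143) and Glul by -1.80 (SE 0.0496). Against blood endothelial cells, 7 of 9 members tested were higher and 2 lower, where 35.2% of 14860 genes were higher and 34.5% lower, 69.8% in all. Slc4a4 was higher by 5.32, Lipg by 5.21, Fabp7 by 5.08, Acsbg1 by 5.02, Dbi by 4.48, Kcnj10 by 4.11 and Apoe by 3.62 (SE 0.0338). Gja1 was lower by -5.34 (SE 0.104) and Glul by -1.37 (SE 0.0618). Slc4a4, Kcnj10, Fabp7, Apoe, Lipg, Dbi and Acsbg1 were higher in satellite glia in each of these comparisons except Apoe against macrophages. Glul was lower in satellite glia in all 3. These comparisons share the satellite glia sums. With total UMIs in place of TMM, the share of calls that were higher moved from 50.2% to 62.1% against macrophages and from 49.2% to 60.05% against fibroblasts, and the median of all genes from 0.03 to 0.28 and from 0.01 to 0.17, with no change in a member's call.

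**Figure D4:**
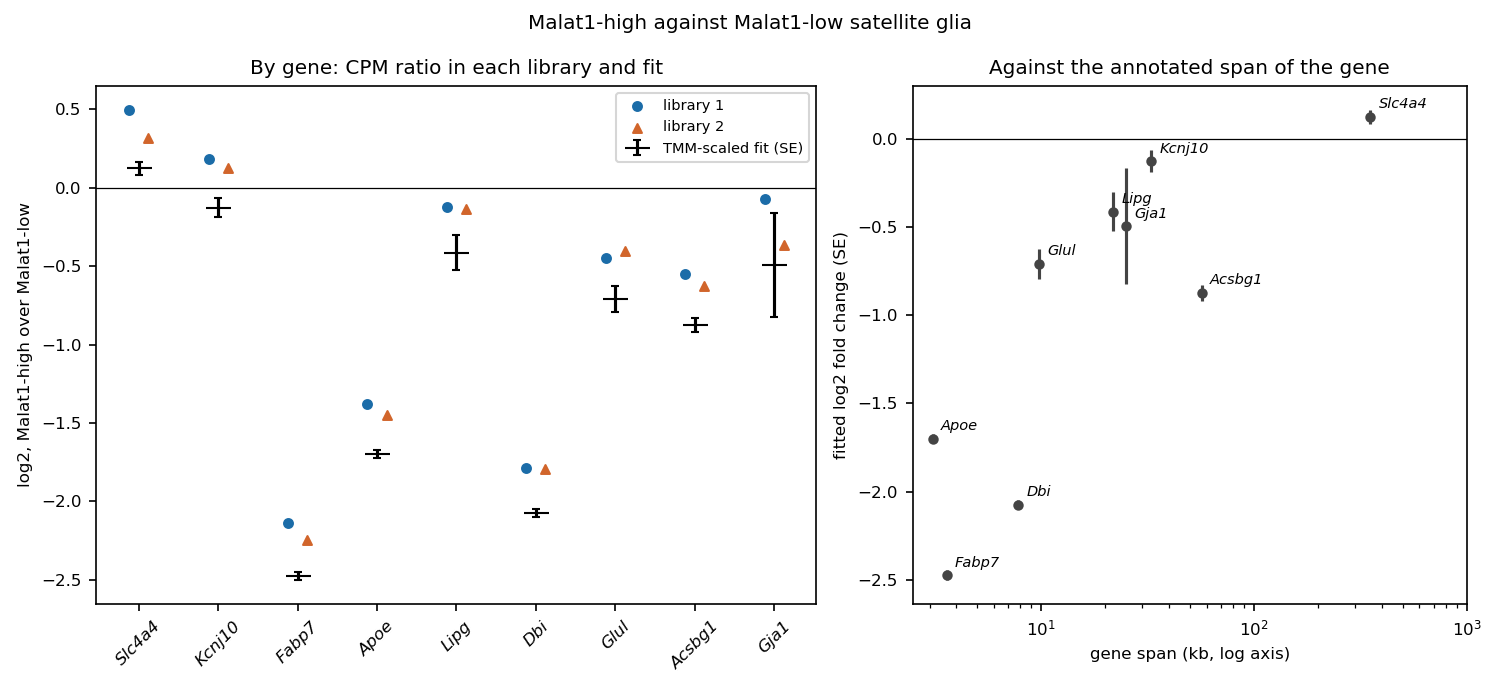
Left, log2 ratio of CPM of Malat1-high over Malat1-low satellite glia for each member in library 1 (circles) and library 2 (triangles), with the fitted value and its SE as black bars. Right, the fitted value against the annotated span of the gene in kb on a log axis, where Apoe, Fabp7 and Dbi, of at most 7.8 kb, have the lowest values and Slc4a4, of 352.8 kb, the highest.

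Among the members, the Malat1-high and Malat1-low satellite glia differed most in Fabp7, Dbi and Apoe. Of 9 members tested, 1 was higher in Malat1-high cells and 6 lower, where 26.9% of 13337 genes were higher and 30% lower, 56.9% in all. Fabp7 was lower by -2.47 (SE 0.0276), Dbi by -2.07 (SE 0.0265) and Apoe by -1.70 (SE 0.0249), each in both libraries. Acsbg1 was lower by -0.87 (SE 0.0452, adjusted p = 1.49e-80) and Glul by -0.71 (SE 0.0843, adjusted p = 3.96e-16). The median of the 9 was -0.71, against 0.02 over all genes tested.

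The ion genes and Lipg showed little difference between the states. Lipg was lower by -0.41 (SE 0.112, adjusted p = 6.19e-04), a call lost with DESeq2 (adjusted p = 0.166), with scaling by total UMIs (-0.13, adjusted p = 0.326) and at the lower clustering resolution (-0.11, adjusted p = 0.353), and its sign turned with doublets kept (0.10, adjusted p = 0.473). Slc4a4 was higher by 0.13 (SE 0.0407, adjusted p = 4.75e-03), lost with DESeq2 (adjusted p = 0.227), without the filter (0.05, adjusted p = 0.453) and without the library as a block (adjusted p = 0.147). Kcnj10 did not pass (-0.13, SE 0.0613, adjusted p = 0.0690), and its sign turned under scaling by total UMIs (0.16, adjusted p = 0.0193) and with doublets kept (0.08, adjusted p = 0.284). As shares of all UMIs, both ion genes were slightly higher in Malat1-high cells, at 1.41 and 1.24 times for Slc4a4 and 1.14 and 1.09 times for Kcnj10. Gja1 did not pass (adjusted p = 0.197) and Slc1a3 was not tested.

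Scaling weighed on this comparison. Scaling by total UMIs moved the median of all genes from 0.02 to 0.31, and the share of calls that were higher was 47.2% with TMM scaling, 69.2% with total UMIs and 30.1% with DESeq2. Under total UMIs, Fabp7 (-2.19), Dbi (-1.79), Apoe (-1.41), Acsbg1 (-0.59) and Glul (-0.42) still passed as lower and Slc4a4 as higher (0.41). Relative to that shifted median, Kcnj10 at 0.16 was below it. Malat1-high cells had medians of 4126.5 and 4252 UMIs against 9386 and 9536.5, and 6.05% and 5.68% mitochondrial UMIs against 4.69% and 4.47%. Their summed neuron markers, 12 of 12 with UMIs in both states, were at 2640 and 2703 CPM against 1282 and 1307 CPM, and fibroblast markers, 8 of 8 with UMIs, at 1201 and 1106 CPM against 832 and 864 CPM. Mast cell markers, 6 of 6, were at 287 and 258 CPM against 147 and 146 CPM, and the non-myelinating Schwann markers, 10 of 10, at 12028 and 12756 CPM against 7646 and 8307 CPM. Myelinating Schwann markers, 10 of 10, went the other way, at 1376 and 1322 CPM against 2156 and 2136 CPM. With every cell thinned to 1500 UMIs, Fabp7 (-2.37), Dbi (-1.97) and Apoe (-1.60) were near their values at full depth. The part of the mitochondrial share and of the other cells' markers was not tested.

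Among the members tested, differences between the states broadly ran with the annotated span of the gene (GENCODE M21, GRCm38). The relation was not computed over all genes. Apoe spans 3.1 kb (chr7:19696109-19699188), Fabp7 3.6 kb (chr10:57784881-57788450) and Dbi 7.8 kb (chr1:120113280-120121078), and these had the 3 lowest values. Slc4a4 spans 352.8 kb (chr5:88886818-89239653) and had the highest. Acsbg1, of 57 kb (chr9:54604877-54661870), fell below Kcnj10, of 32.9 kb (chr1:172341210-172374085), and Lipg, of 21.9 kb, so the order was not strict. Apoe, Fabp7 and Dbi also had the highest CPM of the members in Malat1-low cells and the shortest exonic lengths, from 1.25 kb (Fabp7) to 2.14 kb (Apoe). Span, level and exonic length cannot be told apart among so few genes. The sources used here do not say whether intron reads were counted, and the part of gene span was not tested.

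In the interferon satellite cluster, the ratio to the Malat1-low cluster was 0.571 and 0.523 for Fabp7 in libraries 1 and 2, 0.685 and 0.679 for Apoe, 0.797 and 0.764 for Dbi, 0.660 and 0.757 for Slc4a4 and 0.710 and 0.693 for Glul. It was 0.834 and 0.918 for Acsbg1 and 0.885 and 0.979 for Kcnj10. All 7 were below 1 in both libraries, although Kcnj10 in library 2 was near 1, from 122 UMIs in the interferon cluster. These are CPM ratios without TMM scaling. The share of all genes below 1 was not computed, so the count says nothing particular to the members, and the ratios were not tested. Lipg differed between the libraries, at 0.936 and 0.442, from 38 and 17 UMIs, and Slc1a3 and Gja1 had at most 9 UMIs per library in the interferon cluster.

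Genes of the same pathways, taken from lists that do not hold the members, were read in the same fits. The lists too were chosen with earlier results of these data known, so their counts are a description and no independent support. Against non-myelinating Schwann cells, sterol and fatty acid synthesis stood out by count, with 19 of 21 genes tested higher in satellite glia and 0 lower. Of all genes tested, 12.6% were higher and 14% lower. The median of the list was 0.73 against 0.00 over all genes. Mvd, of the mevalonate pathway, was at 36.0 and 38.4 CPM against 16.1 and 15.7 CPM (1.19, SE 0.155, adjusted p = 3.08e-13). Hmgcs1, which makes HMG-CoA, was at 590 and 578 CPM against 283 and 267 CPM (1.05, SE 0.0440), and Idi1, which makes dimethylallyl diphosphate, differed by 0.998 (SE 0.0613). The count was 19 with Malat1-low satellite glia alone and with the Car10 cluster joined to the Schwann cells. It was 16 with DESeq2, where 3.65% of all genes were higher, 16 with doublets kept and 14 with cells thinned. Against macrophages and against fibroblasts 21 of 21 were higher, where 36.1% and 34.2% of all genes were. Against blood endothelial cells 20 were higher and 1 lower, where 35.2% and 34.5% of all genes were. Against myelinating Schwann cells 13 were higher, where 13.3% of all genes were. Between the satellite states, 2 were higher and 11 lower in Malat1-high cells, among the lower ones Mvd (-1.35), Fdps (-1.20) and Idi1 (-1.07). Of all genes tested between the states, 26.9% were higher and 30% lower. Under scaling by total UMIs, 9 genes of the list were higher and 9 lower.

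Other ion and water genes were mixed, with 8 of 21 higher and 2 lower against non-myelinating Schwann cells, 5 and 1 with DESeq2 and 4 and 3 of 17 with cells thinned. For this and the lists that follow, 12.6% of all genes were higher and 14% lower in the edgeR fit. With DESeq2 3.65% were higher and 4.69% lower, and with cells thinned or doublets kept fewer genes were also called. Kcnj16, the partner subunit of Kcnj10 in heteromeric channels, was at 50.8 and 58.2 CPM against 9.18 and 10.3 CPM (2.44, SE 0.161, adjusted p = 1.08e-49), and Aqp4, the astrocyte water channel, at 16.4 and 13.6 CPM against 4.40 and 1.53 CPM (2.29, SE 0.297, adjusted p = 2.51e-13). Car2, carbonic anhydrase, was at 6.20 and 6.14 CPM against 0 and 0.766 CPM, with fewer than 3 UMIs in the Schwann cells. Fxyd1, a regulator of the sodium pump, was lower (-0.81, SE 0.0286) and so was the bicarbonate transporter Slc4a7 (-0.42, SE 0.146, adjusted p = 0.0205). Kcnj10 and its partner were thus both higher in satellite glia, and of the bicarbonate transporters named, Slc4a4 was higher and Slc4a7 lower.

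Of glutamate, glutamine and GABA genes, 4 of 10 tested were higher and 2 lower, and 2 higher and 1 lower with DESeq2. Their median was 0.17, and it turned to -0.06 with doublets kept, -0.09 with cells thinned and -0.13 with the Car10 cluster joined. Slc1a2, the GLT-1 transporter, was low but higher in satellite glia, at 9.48 and 9.31 CPM against 1.47 and 1.53 CPM (2.60, SE 0.397, adjusted p = 9.56e-10), as were Abat (0.48) and Slc1a5 (0.42), whereas Slc38a2 (-0.48) and Got2 (-0.25) were lower. Of gap junction and pannexin genes, 0 of 5 were higher and 2 lower, Gjc1 (-0.87) and Gjc3 (-0.18), but 0 were lower with DESeq2 and 1 without the block, with doublets kept, with cells thinned or with the Car10 cluster joined. Gjc3, a connexin of glia, was at 399.7 and 422.5 CPM in satellite glia and 447 and 465 CPM in the Schwann cells. RNA of another connexin and another glutamate transporter than the members was thus found in satellite glia, the transporter at low level.

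Fatty acid binding and acyl-CoA genes gave 4 of 19 higher and 2 lower, where 12.6% of all genes were higher and 14% lower. None was lower with DESeq2, with doublets kept or with cells thinned, where 3, 3 and 2 were higher. Acsl6, an acyl-CoA synthetase of neural cells, was at 26.0 and 22.4 CPM against 5.51 and 4.595 CPM (2.22, SE 0.231, adjusted p = 2.25e-20), followed by Acsl3 (0.69) and Cpt1a (0.26), and Acsl1 (-1.09) and Acsl5 (-0.64) were lower. Of lipoprotein and cholesterol genes, 8 of 19 were higher and 1 lower. Vldlr, a receptor for Apoe, was at 203 and 213 CPM against 62.0 and 70.8 CPM (1.61, SE 0.0742), Apoc1, a small apolipoprotein next to Apoe in the genome, differed by 0.98 (SE 0.160) and Abca1, the cholesterol exporter, by 0.74 (SE 0.0741), while Lipa, the lysosomal acid lipase, was lower (-0.47). Medians were 0.04 for the fatty acid list and 0.24 for the lipoprotein list, against 0.00 over all genes. With doublets kept the lipoprotein median turned to -0.03, with 6 higher and 3 lower. Between the satellite states, Apoc1 was lower in Malat1-high cells by -3.03 (SE 0.169, adjusted p = 4.82e-70), at 7.15 and 6.48 CPM against 48.4 and 43.7 CPM, and Fabp5 by -1.20, whereas Fabp3 was higher by 1.10.

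Members were compared in pairs by Pearson's r of log2(CPM + 1) across the 17 populations in both libraries (34 points that share libraries, depth and free RNA). No grouping was computed, and several of the populations are related glial clusters. Fabp7 and Dbi had an r of 0.96, Fabp7 and Acsbg1 0.94 and Dbi and Acsbg1 0.93, and Kcnj10 had 0.87 with Dbi and 0.84 with Fabp7. Glul had -0.42 with Acsbg1, Slc1a3 -0.34 with Acsbg1, and Slc1a3 and Gja1 0.38 with each other. Among 13937 genes, those most like each member were Dpyd and 9530077C05Rik for Slc4a4 (0.89 and 0.86), Ttyh1 and Fgf2 for Kcnj10 (both 0.94), S100b for Dbi (0.96), Gpr37l1 and Gm2115 for Acsbg1 (both 0.96), Apoc1 and Dhrs2 for Apoe (0.85 and 0.80) and 2900052N01Rik and Mapre2 for Lipg (0.83 and 0.82). Outside the glia they were Itga9 and Slco2b1 for Glul (0.85 and 0.84), Ptgfr and Lum for Slc1a3 (both 0.90) and Lepr and Fmo2 for Gja1 (both 0.80). Ttyh1 and Gpr37l1 are satellite markers, S100b a glial marker and Lum a fibroblast marker of the naming sets.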

How the data were processed

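The counts are UMIs per gene and barcode, deposited by the authors as 1 filtered matrix per library, made with Cell Ranger 6.1.2 against mm10 per the submitters' processing notes. The annotation release, the use of intron reads and any further filter of the authors are not stated in what was used here, and the highest mitochondrial share was 9.9952% and 9.9979%. Cells with at least 500 genes, 1000 UMIs and under 20% mitochondrial UMIs were kept (1 barcode failed), and Scrublet removed 561 (4.45%) and 625 (5.09%) doublets. Each UMI was assigned with probability 0.5 to clustering and naming or to testing, and the members were kept out of the former.

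Clustering used 3000 variable genes, 30 principal components, 15 neighbours and Leiden resolution 1 (scanpy 1.11.5, leidenalg 0.10.2, Python 3.11.15). Testing UMIs were summed per library and population, with at least 20 cells in each library, and tested with edgeR 4.0.16 (R 4.3.3): filterByExpr, TMM scaling, quasi-likelihood test, library as a block because both sums of a library come from 1 suspension, Benjamini-Hochberg adjustment and a threshold of 0.05. With 2 libraries each fit had 1 residual degree of freedom, and the spread was borrowed across genes. In every comparison but that with myelinating Schwann cells, the shared spread took all the weight and a gene's own spread none. Levels are CPM of the testing UMIs. Scripts were tested on simulated data.

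Alternatives were DESeq2 1.42.0, total UMIs in place of TMM, no filter, no block, all UMIs for both steps, doublets kept, resolution 0.6, cells thinned to 1500 UMIs and each library left out. Leaving out shared barcodes, Malat1-low satellite glia alone and the joined Car10 cluster were added after seeing the data. Named were the 10 members, Malat1, up to 3 genes of largest change in each direction from each list, and the 2 genes most like each member among those of at least 10 CPM in a population. The named interferon-stimulated genes are left out of the text, except cluster leaders. Members, markers and lists were chosen with earlier results of these data known. One promoter sequence is not reported here.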

Additional observations from a re-analysis of the deposited data

How the results depend on the processing

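Across 118 recomputed counts of calls, 105 stayed within 1.5 times their value, and 13 moved. In the order non-myelinating Schwann cells, myelinating Schwann cells, Malat1 states, macrophages, fibroblasts and blood endothelial cells, the genes called numbered 3655, 3460, 7586, 10691, 10644 and 10370. With DESeq2 they numbered 1145, 1733, 3432, 6710, 6041 and 5936, and with cells thinned to 1500 UMIs 1843, 1864, 3990, 6633, 6388 and 5794. With doublets kept, 2262 were called against non-myelinating Schwann cells. The cause was not tested, except that thinning leaves fewer UMIs.

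Without the library as a block, which pairs sums of the same suspension, 2913, 3355, 6880, 10282, 9979 and 9938 genes were called. The block changed 1 member call, Slc4a4 between the Malat1 states, with 0.13 and an adjusted p of 0.147 without it (edgeR).

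Of 658 recomputed member values, 561 stayed on their side, 12 lost a call, 5 gained one, 6 turned sign and 74 values of single libraries moved beyond the replicate spread. Those that turned sign were Dbi against non-myelinating Schwann cells with doublets kept (-0.019) and cells thinned (-0.28), Gja1 there with doublets kept (-0.11), Kcnj10 between the Malat1 states with total UMIs (0.16) and doublets kept (0.078), and Lipg between the states with doublets kept (0.10). The cause was not tested. Without the filter Kcnj10 was called lower in Malat1-high cells (-0.20), and with all UMIs Gja1 was (-0.62). Leaving out a library leaves 1 sum against 1, a value with no test. Resolution 0.6 named no non-myelinating Schwann cells and gave no value for that comparison. Leaving out shared barcodes changed no member call. Slc1a3, Gja1 and Lipg rest on few UMIs in several populations, which limits their precision.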
